A study of Danio rerio with 24 samples.

Results

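The miR-430 family was followed across 4 groups of whole wild-type zebrafish embryos of the TL strain on 2 types of microarray. Its members were taken by name, and 5 names were present on each array type: dre-miR-430a, dre-miR-430b, dre-miR-430c, dre-miR-430i and dre-miR-430j. They were 5 of 231 miRNA names on the Agilent arrays, where 10 of 490 probes belonged to them, and 5 of 224 names on the Exiqon arrays, where 5 of 255 probes did. The groups were TCDD embryos at 60 hours post-fertilization (hpf), DMSO embryos at 60 hpf, TCDD embryos at 36 hpf and DMSO embryos at 36 hpf, each with 3 biological replicates per array type. TCDD is 2,3,7,8-tetrachlorodibenzo-p-dioxin, a ligand of the aryl hydrocarbon receptor, and DMSO is the solvent control. Treatment began at 30 hpf and lasted 1 h in every group. The labels used here state neither the TCDD concentration nor whether replicates with the same number gave RNA to both array types.

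MicroRNAs are short RNAs that guide the silencing machinery to matching sites in messenger RNAs, mostly through a stretch near their 5′ end called the seed. The miR-430 family is the zebrafish counterpart of the mammalian miR-302 and miR-290 to miR-295 families. It is switched on at the start of zygotic transcription, clears maternal messenger RNAs from the early embryo, and fades as organs form. The study compared dioxin-exposed with solvent-treated embryos at both stages, so the family could be read for its change with age and for its response to TCDD. Levels came from homogenized whole embryos, in which fewer cells holding a miRNA and less of it per cell cannot be told apart.

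The Agilent arrays carried a longer and a shorter probe for each name, both complementary to the miRNA. The longer probe of each member is printed 5′ to 3′ as the array files give it, because the members are told apart on the array by these bases alone. Capitals mark the stretch left after the bases shared with the miR-430a probe from either end. The final base of the miR-430j probe lies past the end of the miR-430a probe, has no counterpart there and is in lower case.
miR-430a: ctaccccaacaaatagc
miR-430b: ctaccccaacTTGatagc
miR-430c: ctaccccaaAGAGAagc
miR-430i: ctacGccaacaaatagc
miR-430j: taccccaaTTTGatagca
The miR-430i probe differed from the miR-430a probe by 1 base, C5G, with positions counted from 1 at the 5′ end of the probe. The miR-430j probe started 1 base further in, and over the 17 bases it shares with the miR-430b probe it differed by 1 base, C10T in the numbering of the miR-430b probe. By contrast, the miR-430a and miR-430c probes, both 17 bases long, differed at 4 positions. The members whose probes are most alike are therefore miR-430a with miR-430i and miR-430b with miR-430j. Probe sequences of the Exiqon arrays were not used here.

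The array annotation places the longer probes of miR-430a, miR-430b, miR-430c and miR-430i at 33 positions of the danRer5 genome build, all on chromosome 4. They lie between 34354028 and 34364465, a span of 10438 bases, with a median of 235 bases from one start to the next. The miR-430a, miR-430b and miR-430c probes matched at 10 positions each and the miR-430i probe at 3, while the miR-430j probe is listed as unmapped. One unit at the start of the cluster shows the repeat: miR-430b at chr4:34354028-34354045, miR-430c at chr4:34354289-34354305 and miR-430a at chr4:34354423-34354439. In the order along the chromosome a miR-430c match was followed by miR-430a and then miR-430b 6 times, and by miR-430i and then miR-430b 2 times. No gene annotation of this build was used, so whether these positions are exonic, intronic or intergenic was not looked up. In the newer assembly GRCz12tu, the RefSeq gene table names 58 mir430 genes, 57 of them on chromosome 4. By name they belong to miR-430a, miR-430b, miR-430c and miR-430i, and none to miR-430j. An array reads the mature product of all copies of a member together.

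**Figure D1:**
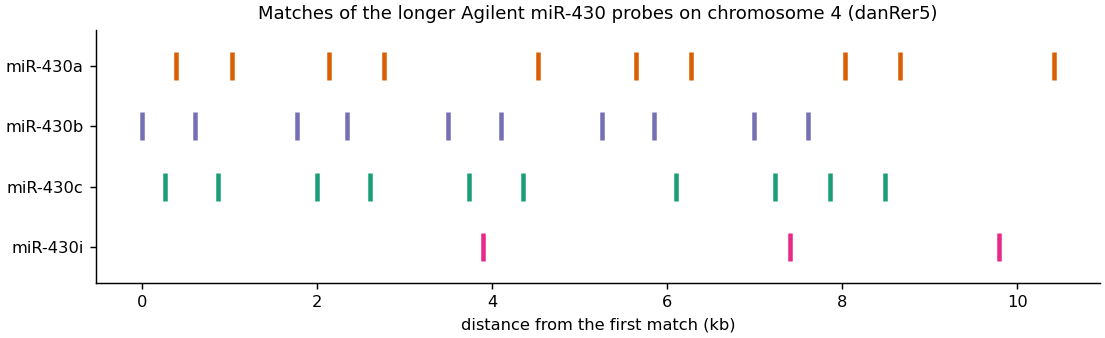
Positions at which the longer Agilent probes of miR-430a, miR-430b, miR-430c and miR-430i match chromosome 4 of danRer5, as distance in kb from the first match. Each tick is 1 match: miR-430a, miR-430b and miR-430c alternate with 10 ticks each, and miR-430i has 3.

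Each Agilent array detected 191 to 277 of the 490 probes and each Exiqon array 240 to 255 of the 255. Arrays of 1 group correlated at 0.99 or more over all tested names on the Agilent platform, and at 0.86 to 0.91 across stages. The number of arrays, 3 per group, limits the precision.

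Of the 5 members, 4 were measurable on the Agilent arrays and 5 on the Exiqon arrays. The Agilent probes of miR-430i had 10 spots each on every array, and 0 of 240 spots over the 12 arrays were well above background. Its spot signals had a median of -34.8 at 60 hpf and -2.07 at 36 hpf, after background subtraction. The Exiqon probe of miR-430i was detected on all 12 arrays, with sample-channel intensities of 171 to 290 at 60 hpf and 274 to 438 at 36 hpf. Each Exiqon array detected 240 to 255 of its 255 probes, so detection there sets few probes apart. How far a probe for one member also binds another was not tested on either array type. This includes the Agilent probes of miR-430b and miR-430j, which differ by 1 base over their shared stretch.

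Agilent levels are given as log2 of the signal relative to each array's 75th percentile, computed over the 186 probes detected on all arrays. One level cannot be set against that of another probe, because probes bind with different strength. The longer probe of each name was the brighter of the pair for miR-430a, miR-430b, miR-430c and miR-430j, and it stands for the name.

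In TCDD embryos the miR-430a level was 0.61, 0.81 and 0.55 at 60 hpf, against 2.84, 2.76 and 2.81 at 36 hpf. DMSO embryos gave 0.75, 0.70 and 0.63 at 60 hpf, against 2.88, 2.68 and 2.70 at 36 hpf. Every array at 60 hpf was below every array at 36 hpf, and the arrays of the same stage mixed between treatments. Before any scaling, the median miR-430a spot of each array read 12357 to 18411 at 60 hpf and 40096 to 49935 at 36 hpf, again without overlap.

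The longer miR-430b probe read 1.17, 1.24 and 1.11 in TCDD embryos at 60 hpf, against 3.35, 3.33 and 3.20 at 36 hpf. In DMSO embryos it read 1.21, 1.17 and 1.27 at 60 hpf, against 3.41, 3.05 and 3.09 at 36 hpf. This probe reached the ceiling of the scanner: all 10 spots were saturated on all 3 TCDD arrays and on 2 of 3 DMSO arrays at 36 hpf, so its level there is a lower bound. No spot of the shorter miR-430b probe was saturated on any array. That probe read -0.47, -0.38 and -0.50 in TCDD embryos at 60 hpf, against 1.98, 2.0 and 1.96 at 36 hpf. Its DMSO values were -0.39, -0.48 and -0.41 at 60 hpf, against 2.04, 1.92 and 1.79 at 36 hpf. On both probes the stages were apart and the treatments overlapped within each stage.

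For miR-430c the level was -2.19, -1.88 and -2.23 in TCDD embryos at 60 hpf, against 0.14, 0.10 and 0.05 at 36 hpf. DMSO embryos had -2.15, -2.23 and -2.10 at 60 hpf, against 0.44, 0.01 and -0.08 at 36 hpf. The first DMSO replicate at 36 hpf stood above the other arrays of its group, and it was also the array on which the longer miR-430b probe was not saturated. The shorter miR-430c probe was dim: it was detected on 2 of 3 TCDD arrays and 1 of 3 DMSO arrays at 60 hpf, and on all arrays at 36 hpf.

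The miR-430j level was -1.06, -1.06 and -1.08 in TCDD embryos at 60 hpf, against 1.40, 1.34 and 1.39 at 36 hpf. In DMSO embryos it was -1.06, -1.07 and -0.92 at 60 hpf, against 1.33, 1.31 and 1.24 at 36 hpf. Stages did not overlap in either treatment, and at 36 hpf all TCDD values of this longer probe lay just above all its DMSO values.

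**Figure D2:**
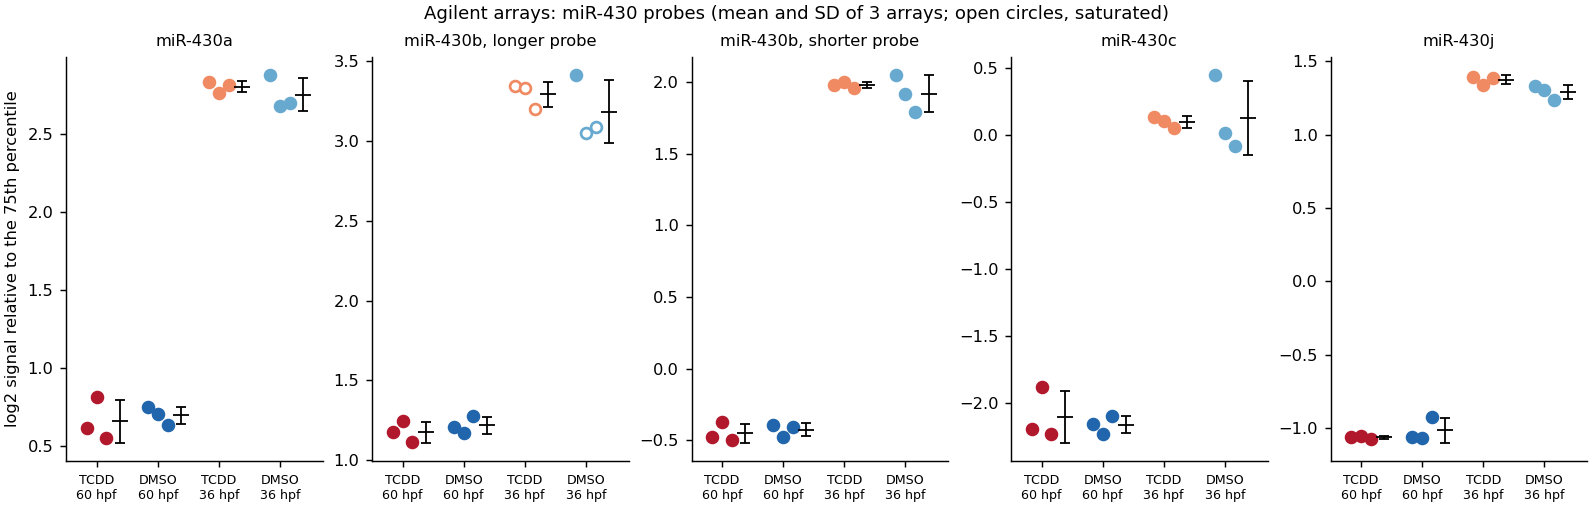
Agilent log2 signal relative to the 75th percentile (vertical axis, a separate scale per probe) for each array, by group; each point is 1 array, open points are saturated, and the bar is the mean with the SD of 3 arrays. Points at 60 hpf lie below those at 36 hpf for every probe shown, and TCDD and DMSO arrays of a stage lie at like heights.

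Each embryo sample on the Exiqon arrays, in the dye Hy3, was set against a reference pool made from the individual samples, in the dye Hy5. Values are log2 ratios of sample over pool after background correction and loess normalization, so 0 is the level of the pool. Arrays of different stages correlated at -0.63 to -0.52 over all names, against 0.90 to 0.99 within groups. Per the labels the sample carried Hy3 and the pool Hy5, which fixes the direction of the ratio. Against a pool of the samples, a name that changes with age tends to lie above 0 at 1 stage and below 0 at the other. The correlation of these ratios across stages therefore depends on the reference.

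The miR-430a ratio was -0.86, -1.08 and -0.91 in TCDD embryos at 60 hpf, against 0.77, 0.71 and 0.95 at 36 hpf. In DMSO embryos it was -1.09, -0.99 and -1.02 at 60 hpf, against 0.71, 0.70 and 0.68 at 36 hpf. The separate channels show where the difference lay. Unscaled sample-channel intensities of miR-430a were 1847 to 2680 at 60 hpf and 4450 to 6056 at 36 hpf, while its pool channel read 4137 to 5898 at 60 hpf and 4643 to 5481 at 36 hpf.

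For miR-430b the ratios were -1.06, -1.18 and -1.08 in TCDD embryos at 60 hpf, against 0.84, 0.79 and 1.03 at 36 hpf. DMSO embryos showed -1.22, -1.11 and -1.12 at 60 hpf, against 0.72, 0.78 and 0.72 at 36 hpf. Unlike the longer Agilent probe, the Exiqon probe had no saturated spot on any array.

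The miR-430c ratios in TCDD embryos were -1.02, -1.11 and -0.96 at 60 hpf, against 0.60, 0.55 and 0.53 at 36 hpf. In DMSO embryos they were -1.12, -0.96 and -0.92 at 60 hpf, against 0.52, 0.58 and 0.56 at 36 hpf. Within a stage the treatments overlapped.

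Ratios of miR-430i were -1.0, -0.76 and -0.91 in TCDD embryos at 60 hpf, against 0.44, 0.39 and 0.33 at 36 hpf. DMSO embryos had -0.74, -0.73 and -0.86 at 60 hpf, against 0.49, 0.47 and 0.36 at 36 hpf. Its stages were apart too, over a shorter distance than for the other 4 members.

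For miR-430j the ratios were -0.96, -1.19 and -1.06 in TCDD embryos at 60 hpf, against 0.65, 0.65 and 0.83 at 36 hpf. The DMSO values were -1.15, -1.09 and -1.09 at 60 hpf, against 0.65, 0.62 and 0.65 at 36 hpf. Of the 240 Exiqon spots of the 5 members, 17 were marked as poor by the image program and left out.

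**Figure D3:**
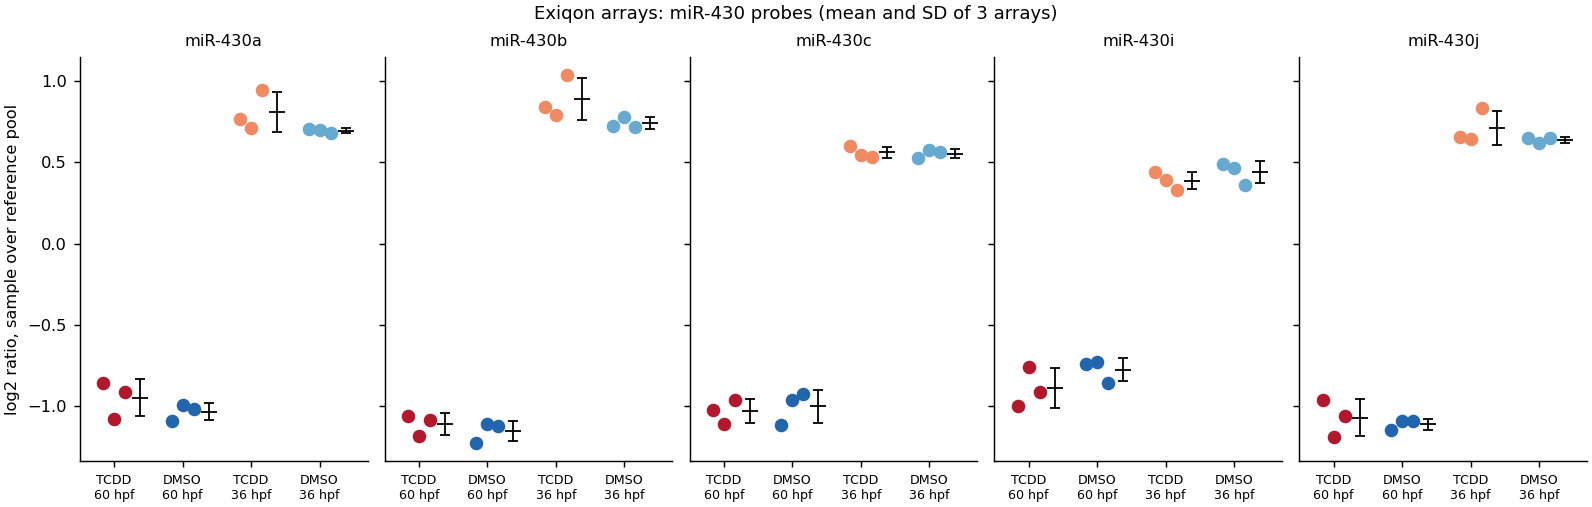
Exiqon log2 ratio of sample over reference pool (vertical axis, shared) for each array, by group; each point is 1 array and the bar is the mean with the SD of 3 arrays. All 60 hpf arrays lie below 0 and all 36 hpf arrays above 0, with the smallest gap for miR-430i.

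All members that could be tested fell between the stages, in both treatments and on both array types. In the fit over all names with limma and Benjamini-Hochberg adjustment, 4 of 4 Agilent members were lower at 60 than at 36 hpf in TCDD embryos, against 31.3% of the 134 names tested. In DMSO embryos 4 of 4 were lower, against 32.8% of names. The Exiqon arrays gave 5 of 5 lower in TCDD embryos, against 16.6% of 223 names, and 5 of 5 in DMSO embryos, against 16.1%. Stages did not overlap for 4 of 4 Agilent members in each treatment, where 32.1% of names were lower without overlap, nor for 5 of 5 Exiqon members, where 14.8% of names were in TCDD embryos and 19.3% in DMSO embryos. Because so many names changed with age, passing the threshold was common, and the members stood at the end of the range of falls. Their median change on the Agilent arrays was -2.17 in TCDD embryos, where the median over all names was 0.20, and -2.17 in DMSO embryos, where it was 0.10. The Exiqon medians were -1.76 in TCDD embryos (0.13 over all names) and -1.73 in DMSO embryos (0.12 over all names).

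The change of miR-430a was -2.15 ± 0.08 (SE, n = 3 per stage, adjusted p = 1.6e-10) in TCDD embryos on the Agilent arrays, a 4.43-fold fall. In DMSO embryos it was -2.06 ± 0.08 (adjusted p = 2.4e-10), or 4.17-fold. The Exiqon values were -1.76 ± 0.06 in TCDD embryos, 3.38-fold, and -1.73 ± 0.06 in DMSO embryos, 3.31-fold. The shorter Agilent probe of miR-430a, dimmer than the longer one, changed by -2.05 ± 0.13 in TCDD embryos and by -2.11 ± 0.13 in DMSO embryos.

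With the saturated longer probe, miR-430b was at least 4.34-fold lower at 60 than at 36 hpf in TCDD embryos (adjusted p = 5.3e-10). In DMSO embryos, with 2 of the 3 arrays at 36 hpf saturated, the same probe was at least 3.91-fold lower at 60 hpf. The unsaturated shorter probe changed by -2.43 ± 0.07 in TCDD embryos, a 5.38-fold fall, and by -2.34 ± 0.07 in DMSO embryos, a 5.07-fold fall. The Exiqon value of miR-430b changed by -2.0 ± 0.06 in TCDD embryos and by -1.89 ± 0.06 in DMSO embryos.

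Changes of miR-430c were -2.20 ± 0.13 in TCDD embryos (4.59-fold) and -2.29 ± 0.13 in DMSO embryos (4.88-fold) on the Agilent arrays. Its dim shorter probe gave -1.94 ± 0.16 in TCDD embryos and -1.95 ± 0.16 in DMSO embryos. At 60 hpf that probe read -5.195 to -5.096, at or next to the log2 floor of -5.195, so the floor may cut these falls short. The Exiqon arrays gave -1.59 ± 0.05 in TCDD embryos and -1.55 ± 0.05 in DMSO embryos. The Agilent standard error was the widest of the 4 members.

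The miR-430j change on the Agilent arrays was -2.44 ± 0.05 in TCDD embryos (5.42-fold, adjusted p = 2.9e-12) and -2.31 ± 0.05 in DMSO embryos (4.96-fold, adjusted p = 3.0e-12). The shorter miR-430j probe gave -2.49 ± 0.13 in TCDD embryos and -2.28 ± 0.13 in DMSO embryos. Its Exiqon changes were -1.78 ± 0.06 in TCDD embryos and -1.75 ± 0.06 in DMSO embryos. For miR-430i, with Exiqon values only, the change was -1.28 ± 0.06 in TCDD embryos (adjusted p = 5.6e-10) and -1.21 ± 0.06 in DMSO embryos (adjusted p = 1.0e-09), the smallest of the family.

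Ranked by size, the 4 Agilent members held ranks 1 to 4 among the falls of 134 names in both treatments. The 5 Exiqon members held ranks 1 to 5 of 223 names, in the order miR-430b, miR-430j, miR-430a, miR-430c and miR-430i in both treatments.

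**Figure D4:**
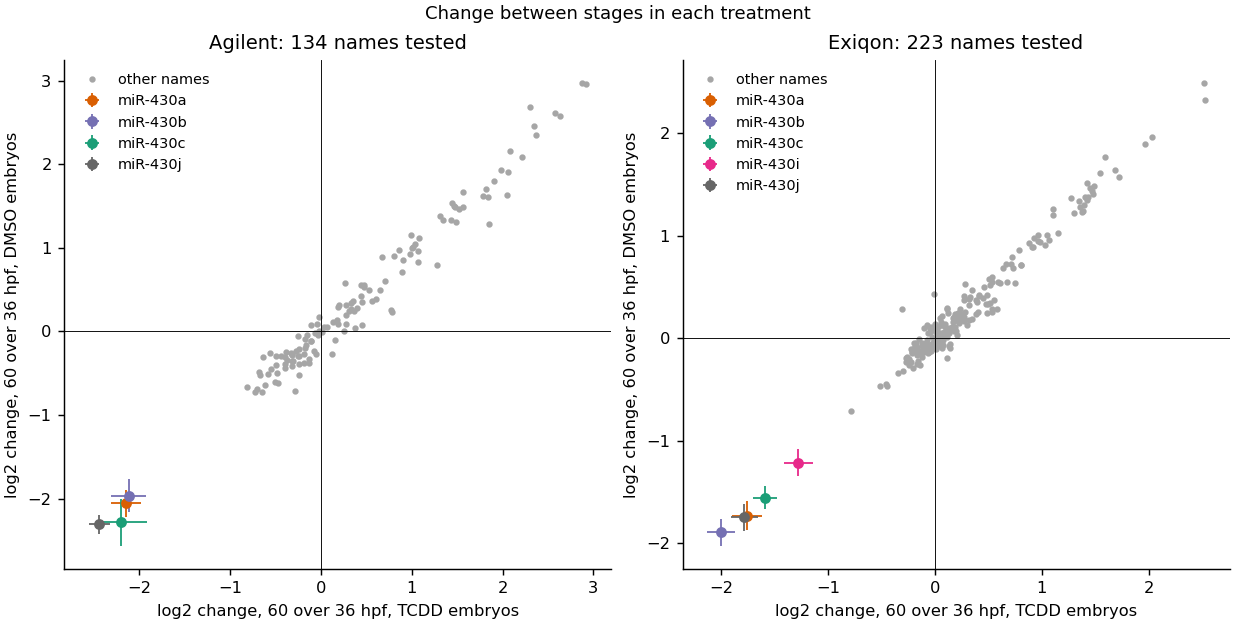
Change between stages of every tested name as log2 of 60 over 36 hpf, in TCDD embryos (horizontal axis) and in DMSO embryos (vertical axis); bars on the members are 95% confidence intervals. The members stand at the lower left, beyond all other names, between -2.44 and -1.97 on the Agilent arrays, with miR-430b at its saturated longer probe, and between -2.0 and -1.21 on the Exiqon arrays.

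The size of the fall depended on how arrays were scaled, and its direction did not under the settings tried. Without any scaling between Agilent arrays, the median over all names was 0.72 in TCDD embryos and 0.67 in DMSO embryos, and the members' median was -1.65 in TCDD embryos and -1.60 in DMSO embryos. Measured from the median of all names, the members' median was -2.37 in TCDD embryos and -2.27 in DMSO embryos with the scaling used here. These distances are the same without scaling, since the scaling shifts all names of an array alike. The balance over all names moved far more: in TCDD embryos 67 names rose and 42 fell with the scaling used, 48 rose and 62 fell with the percentile taken over all probes, and 81 rose and 4 fell without scaling. In DMSO embryos 61 rose and 44 fell with the scaling used, 45 rose and 66 fell with the percentile over all probes, and 82 rose and 4 fell without scaling. For the Exiqon data, median centring in place of loess left the members' median at -1.13 in TCDD embryos and -1.29 in DMSO embryos, with 154 names risen and 6 fallen in TCDD embryos and 124 and 10 in DMSO embryos. With loess these counts were 108 and 37 in TCDD embryos and 108 and 36 in DMSO embryos.

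The arrays had been run in batches. On the Agilent platform slide 1 held the first replicate of each group and slide 2 the others. In TCDD embryos the members' changes were -2.46 to -2.17 within slide 1 and -2.43 to -2.09 within slide 2. In DMSO embryos they were -2.60 to -2.13 within slide 1 and -2.27 to -1.85 within slide 2. Exiqon images had been analysed on 2 days. In TCDD embryos the changes were -2.0 to -1.17 within the first day and -2.10 to -1.29 within the second, whereas all DMSO arrays fell on the first day. The image file names of all DMSO arrays at 36 hpf carried a scan tag of their own, and those of the 3 other groups shared 1 tag. For the Exiqon data, scan tag and stage therefore cannot be told apart in DMSO embryos, nor scan tag and treatment at 36 hpf. The same holds for scan tag and the difference of the TCDD effect between stages. What the tag stands for is not known here.

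The measured falls differed between the probes of the members. Whether the miRNAs themselves fell by different amounts, or their probes responded differently, was not tested. Differences between members of their log2 values were taken array by array and compared between 60 and 36 hpf by an exact two-sided permutation of the stage within each treatment, with 6 arrays per stage. The smallest p this design allows is 0.005, and p-values were adjusted over the 6 Agilent or 10 Exiqon pairs. Using the unsaturated miR-430b probe, miR-430a fell by less than miR-430b on the Agilent arrays: the difference of miR-430a minus miR-430b was 1.11 ± 0.06 at 60 hpf and 0.83 ± 0.06 at 36 hpf (SD, n = 6 arrays per stage, exact p = 0.005, adjusted p = 0.015). The Exiqon arrays gave the same direction for this pair, with 0.14 ± 0.04 at 60 hpf and -0.06 ± 0.03 at 36 hpf (exact p = 0.005, adjusted p = 0.00625).

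Between miR-430a and miR-430j the platforms differed. On the Agilent arrays miR-430a fell by 0.27 log2 units less than miR-430j (exact p = 0.005, adjusted p = 0.015), while on the Exiqon arrays the shift was 0.02 (exact p = 0.145). The remaining 4 Agilent pairs had shifts of -0.14 to 0.14 and did not pass (exact adjusted p = 0.0975 to 0.775). These include miR-430b with miR-430j, whose probes differ by a single base over their shared stretch and whose shift was -0.01. They also include miR-430a minus miR-430c, where the platforms had opposite signs. Its shift was 0.14 on the Agilent arrays (exact adjusted p = 0.0975) and -0.17 on the Exiqon arrays (exact adjusted p = 0.00625).

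Of the 10 Exiqon pairs 9 passed, and the 3 largest shifts involved miR-430i. The difference of miR-430b minus miR-430i was -0.30 ± 0.16 at 60 hpf and 0.40 ± 0.16 at 36 hpf, a shift of -0.70 (exact adjusted p = 0.00625). For miR-430a minus miR-430i the shift was -0.50 and for miR-430i minus miR-430j it was 0.52 (exact adjusted p = 0.00625 for both). Compared with miR-430c, miR-430i fell by 0.33 less (exact adjusted p = 0.00625). The Exiqon miR-430i spots were dim, with a pool channel of 325 to 518 at 60 hpf and 292 to 435 at 36 hpf. How far spots near background, or the offset of 50 added before the ratio was taken, shorten a ratio was not tested.

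No member passed the test for TCDD against DMSO at either stage on either array type. At 60 hpf 0 of 4 Agilent members passed, against 4.48% of names tested, and 0 of 5 Exiqon members passed, against 5.83%. At 36 hpf 0 of 4 Agilent members passed (0.746% of names), and 0 of 5 Exiqon members passed (0.448%). All these tests were by limma over all names. At an unadjusted p under 0.05 there were 0 members at 60 hpf on either array type (9.7% of Agilent and 26% of Exiqon names), and at 36 hpf 0 Agilent members (5.22% of names) and 1 Exiqon member (8.07% of names).

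At 60 hpf the Agilent differences, TCDD minus DMSO, were -0.04 for miR-430a (95% confidence interval -0.20 to 0.13), -0.04 for miR-430b (-0.24 to 0.15), 0.06 for miR-430c (-0.22 to 0.34) and -0.05 for miR-430j (-0.16 to 0.07). The groups overlapped for all 4, while 11.9% of names tested did not overlap. The Exiqon differences at 60 hpf were 0.09 for miR-430a (-0.05 to 0.22), 0.04 for miR-430b (-0.09 to 0.17), -0.03 for miR-430c (-0.14 to 0.08), -0.11 for miR-430i (-0.25 to 0.02) and 0.04 for miR-430j (-0.09 to 0.17). Here too the groups overlapped for every member, while 25.1% of names did not overlap.

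The second TCDD replicate at 60 hpf on the Exiqon arrays had been analysed on the first day, with all DMSO arrays, and the other TCDD replicates of that stage on the second. Without the second replicate, miR-430i was lower in TCDD than in DMSO embryos (-0.18) and passed (limma, adjusted p = 0.04), and 50 in place of 13 of the names tested passed. Within the day that holds this replicate and all 3 DMSO arrays, the miR-430i difference was 0.02. With day as a block the 5 members' differences were -0.08 to -0.02, and 0 of 5 passed. On the Agilent arrays miR-430i gave no signal with which to compare this.

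At 36 hpf the Agilent differences were 0.05 for miR-430a (-0.11 to 0.22), 0.11 for the saturated longer probe of miR-430b (-0.08 to 0.30), -0.03 for miR-430c (-0.31 to 0.25) and 0.08 for miR-430j (-0.03 to 0.20). The unsaturated miR-430b probe differed by 0.06 ± 0.07 (SE). Only miR-430j, 1 of 4, had TCDD values that did not overlap the DMSO values. On its shorter probe the groups overlapped, with a difference of 0.25 ± 0.13 (SE). Of the names tested, 11.2% were higher without overlap. The slides differed in this comparison, with -0.31 to 0.06 within slide 1 and 0.09 to 0.20 within slide 2.

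At 36 hpf the Exiqon difference was 0.15 for miR-430b (0.02 to 0.28), with an unadjusted p of 0.029 and an adjusted p of 0.43 by limma. The other differences were 0.11 for miR-430a (-0.03 to 0.25), 0.01 for miR-430c (-0.11 to 0.12), -0.05 for miR-430i (-0.19 to 0.08) and 0.07 for miR-430j (-0.05 to 0.20). TCDD values of miR-430a and miR-430b did not overlap DMSO values, 2 of 5 members, both higher, and 7.17% of names were higher without overlap. The third TCDD replicate at 36 hpf, the only array of this comparison analysed on the second day, was the highest array for both. Within the first day the members' differences were -0.03 to 0.07. Scan tag and treatment cannot be told apart in any of these Exiqon values at 36 hpf.

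**Figure D5:**
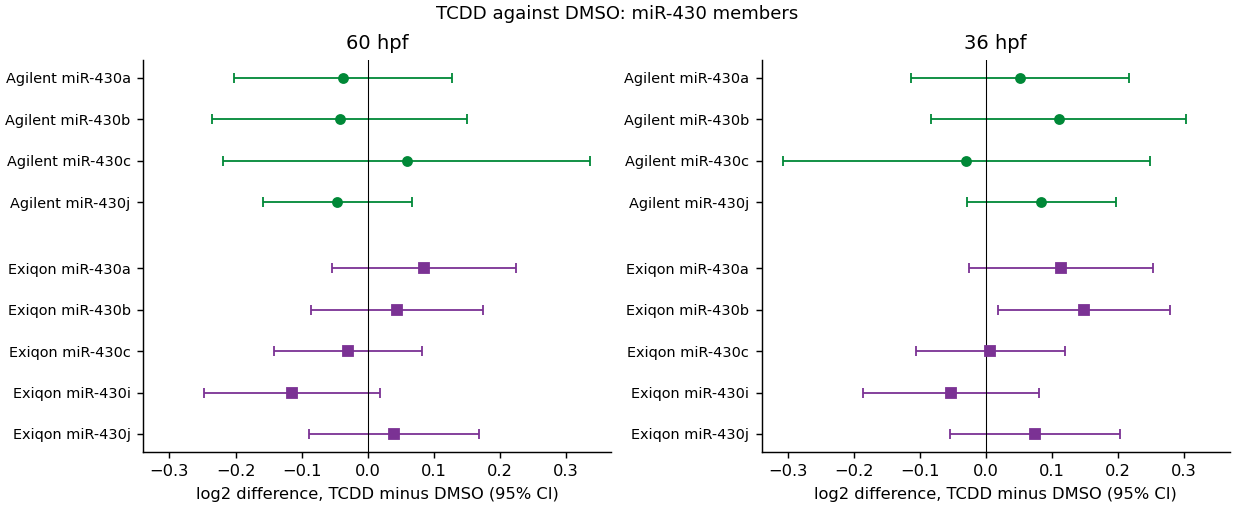
Difference of TCDD minus DMSO on the log2 scale for each member and array type, at 60 hpf (left) and 36 hpf (right), with 95% confidence intervals from the fit over all names. All intervals include 0 except that of miR-430b on the Exiqon arrays at 36 hpf (0.02 to 0.28), and no interval reaches beyond 0.34 in either direction.

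The fall between stages was also compared between treatments, as the difference of the TCDD effect at 60 hpf minus that at 36 hpf. This was -0.15 to 0.09 on the Agilent arrays over the 4 members, and 0 of 4 passed (1.49% of names did). The -0.15 came from the longer miR-430b probe, saturated at 36 hpf, and the unsaturated probe gave -0.09 ± 0.09 (SE). For the Exiqon arrays it was -0.10 to -0.03 over the 5 members, and 0 of 5 passed (2.24% of names did). The scan tag of the DMSO arrays at 36 hpf cannot be told apart from that difference. The count at an unadjusted p under 0.05 was 0 on both (8.21% of Agilent and 14.8% of Exiqon names). The widest intervals were those of miR-430c on the Agilent arrays (-0.30 to 0.48) and of miR-430a on the Exiqon arrays (-0.22 to 0.17).

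The miR-17 and miR-20 genes carry the same core of seed bases as miR-430 at a shifted position and belong to a family broadly expressed in growing tissues. With the scaling used here they fell with age by less than the members. The Agilent value of miR-17a changed by -0.32 ± 0.04 in TCDD embryos and -0.27 ± 0.04 in DMSO embryos. For miR-20a the change was -0.49 ± 0.05 in TCDD embryos and -0.40 ± 0.05 in DMSO embryos, from a probe with 4 saturated spots on 1 TCDD array and 5 on 1 DMSO array at 60 hpf. Its shorter probe, with 0 saturated spots, changed by -0.51 ± 0.07 in TCDD embryos and by -0.39 ± 0.07 in DMSO embryos. For miR-20b the change was -0.51 ± 0.13 in TCDD embryos and -0.60 ± 0.13 in DMSO embryos. The Exiqon changes of these 3 names, each at its brightest probe, were -0.27 to -0.19 in TCDD embryos and -0.23 to -0.12 in DMSO embryos, and all passed. A dimmer Exiqon probe of miR-20a was fitted with limma over all 254 probes tested. It changed by -0.15 in TCDD embryos (adjusted p = 0.030), with overlapping stages, and by -0.11 in DMSO embryos (adjusted p = 0.093), which did not pass. The direction of these small changes depended on the scaling. Without scaling between Agilent arrays the 3 names changed by 0.01 to 0.20 in TCDD embryos and by -0.03 to 0.30 in DMSO embryos, and 0 of 3 passed in either treatment. With Exiqon median centring the changes were 0.30 to 0.41 in TCDD embryos, where 2 of 3 were higher at 60 hpf and passed, and 0.19 to 0.31 in DMSO embryos, where 0 of 3 passed. Agilent quantile normalization left 1 of 3 lower and past the threshold in each treatment. The smallest fall of a miR-430 member, that of miR-430i in DMSO embryos, was -1.21 on the Exiqon arrays with loess.

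The remaining relative was miR-93. It changed by -0.13 ± 0.09 in TCDD embryos (adjusted p = 0.21) and by -0.37 ± 0.09 in DMSO embryos (limma, adjusted p = 0.003) on the Agilent arrays. Its Exiqon value rose by 0.18 ± 0.04 in TCDD embryos (adjusted p = 6.5e-04), and in DMSO embryos its change was 0.09 ± 0.04 (adjusted p = 0.068), with 1 array at 60 hpf left without a value. The difference between treatments was itself not past the threshold on either platform (adjusted p = 0.64 on Agilent and 0.48 on Exiqon). Without Agilent scaling its changes were 0.39 in TCDD embryos and 0.20 in DMSO embryos, neither past the threshold, and with Exiqon median centring they were 0.45 in TCDD embryos and 0.26 in DMSO embryos, both past it. With the scaling used here, none of the 4 relatives passed for TCDD against DMSO at either stage. At an unadjusted limma p under 0.05, Exiqon miR-20b (-0.09) and miR-93 (-0.09) were lower in TCDD embryos at 36 hpf (8.07% of names). At 60 hpf miR-20b (-0.13) and miR-17a (-0.08) were (26% of names), and in these cases the groups did not overlap. At 60 hpf 25.1% of Exiqon names did not overlap. On a second Exiqon probe of miR-17a the groups overlapped at 60 hpf. It read -0.15, -0.16 and -0.10 in TCDD embryos and -0.13, -0.14 and 0.01 in DMSO embryos. Exiqon miR-20a overlapped at both stages, as did all 4 relatives on the Agilent arrays.

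The names whose pattern over 12 arrays was most like that of the family were found by the root mean square difference between their centred log2 values and the members' mean. The nearest Agilent names were miR-153b at 0.74, miR-196a at 0.74 and miR-203a at 0.75, among 129 other zebrafish names. The members themselves were 0.06 to 0.11 from their own mean, which contains them. The 5 Exiqon members were 0.07 to 0.23 from theirs. The 3 Agilent names changed with age by -0.81 to -0.71 in TCDD embryos and by -0.73 to -0.67 in DMSO embryos. Without scaling between arrays these changes were -0.29 to -0.18 in TCDD embryos and -0.15 to -0.09 in DMSO embryos, and 0 of 3 passed in either treatment. The Exiqon names were miR-733 at 0.47, miR-203a at 0.59 and miR-202 at 0.60, among 218 names, with changes of -0.79 to -0.45 in TCDD embryos and -0.70 to -0.46 in DMSO embryos. Median centring gave -0.19 to 0.07 in TCDD embryos and -0.29 to -0.04 in DMSO embryos for them. miR-203a, a miRNA of the epidermis, was named on both platforms. miR-153b, a miRNA of the nervous system, was named on the Agilent arrays alone.

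Tissue miRNAs were looked at as well, and several of them moved with the stages. All 11 listed markers of muscle, nervous system, epithelia and red blood cells were tested on both array types. The neural miRNAs miR-124, miR-9 and miR-138 rose with age, 3 of 3 in each treatment on each array type, by 1.84 to 2.21 in TCDD embryos and 1.61 to 2.08 in DMSO embryos on the Agilent arrays. Their summed Agilent signal, in units of the 75th percentile, was 8.32 to 10.2 in TCDD embryos and 7.98 to 9.63 in DMSO embryos at 60 hpf, against 2.12 to 2.14 in TCDD embryos and 2.22 to 2.43 in DMSO embryos at 36 hpf. This sum adds probes that bind with different strength, and miR-9, the brightest of the 3 in every group, weighs most in it. These 3 names rose under every scaling tried on both array types, whereas the smaller changes of the other markers moved with the scaling. Many other names rose too, as counted with the scaling settings above. Outside the list, miRNAs of the nervous system did not all rise with the Agilent scaling used. miR-153b changed by -0.73 in each treatment and miR-153c by -0.18 in TCDD embryos and -0.20 in DMSO embryos, and both passed. miR-153a changed by 0.37 in TCDD embryos and 0.24 in DMSO embryos and passed, and miR-219 did not pass in either treatment. Of the 3 epithelial miRNAs, 2 fell with the Agilent scaling used, with changes of miR-203a of -0.71 in TCDD embryos and -0.69 in DMSO embryos and of miR-200b of -0.25 in TCDD embryos and -0.29 in DMSO embryos. Outside the list, other names of the miR-200 family went both ways with this scaling, and all passed. In TCDD embryos miR-200c changed by 0.46, miR-141 by 0.57, miR-200a by -0.19 and miR-429 by -0.4. In DMSO embryos these changes were 0.35, 0.37, -0.37 and -0.31. Without scaling miR-203a changed by -0.18 in TCDD embryos and -0.12 in DMSO embryos and miR-200b by 0.28 in each, and neither passed. With Exiqon loess 1 epithelial name fell in TCDD embryos and 2 in DMSO embryos, while with median centring none fell and miR-200b was higher at 60 hpf, by 0.58 in TCDD embryos and 0.34 in DMSO embryos. Among the muscle miRNAs, miR-206 fell on both array types with the scaling used. Its Agilent changes were -0.64 in TCDD embryos, with values from 2 arrays at 36 hpf, and -0.30 in DMSO embryos. Without scaling it changed by -0.13 in TCDD embryos and 0.27 in DMSO embryos, neither past the threshold, and with Exiqon median centring by 0.36 in TCDD embryos, which passed, and 0.16 in DMSO embryos, which did not. With the scaling used miR-133a rose in both treatments on both array types and miR-1 rose on the Agilent arrays. In DMSO embryos miR-133a changed by -0.44 and passed with the Exiqon sample channel alone, and with the percentile over all Agilent probes miR-1 changed by -0.05 in TCDD embryos and -0.01 in DMSO embryos.

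The erythroid miR-451 rose with age in both treatments with the scaling used on each array type, by 0.26 in TCDD embryos and 0.58 in DMSO embryos on the Agilent arrays. In TCDD embryos its change was -0.06 with the percentile over all Agilent probes, which did not pass, and -0.40 with the Exiqon sample channel alone, which did. It was lower in TCDD than in DMSO embryos at 60 hpf, with differences of -0.22 on the Agilent arrays (adjusted p = 0.021) and -0.27 on the Exiqon arrays (limma, adjusted p = 0.0016). That call was lost with no Agilent scaling (-0.33, adjusted p = 0.98), with the percentile over all Agilent probes (-0.22, adjusted p = 0.14), with the Agilent groups compared alone (-0.22, adjusted p = 0.21) and with Exiqon median centring (-0.24, adjusted p = 0.62), all by limma. With no Agilent scaling and with Exiqon median centring no name at all passed in this comparison, so the loss there is not particular to miR-451. The other erythroid name, miR-144, changed by 0.34 in each treatment on the Agilent arrays and did not pass. Its adjusted p by limma was 0.0503 in TCDD embryos and 0.053 in DMSO embryos. With Exiqon loess it rose and passed in each treatment. For TCDD against DMSO at 60 hpf it differed by 0.06 on the Agilent arrays (limma, adjusted p = 0.95), the other direction from miR-451. On the Exiqon arrays it differed by -0.16 and passed. What part shifting tissue proportions have in the fall of the miR-430 members was not tested.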

How the data were processed

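Whole-embryo RNA was hybridised to 12 Agilent and 12 Exiqon arrays. Per the file headers, Agilent spot intensity was background-subtracted by Feature Extraction 9.5.3.1 and deposited without scaling between arrays. Outlier spots were left out, spots of a probe were averaged, and values were divided by the array's 75th percentile over probes detected on all arrays, floored and put on the log2 scale. Exiqon spot and background intensity was deposited per channel. Poor spots were left out, normexp with an offset of 50 and global loess followed, and the log2 ratio of Hy3 over Hy5 was taken. The deposited Exiqon table of log2 ratios, made by an unstated normalization, served as an alternative. The brightest probe stood for a name, and a name was tested if detected on all 3 arrays of a group. Group means of all 12 arrays of a platform were fitted with limma 3.58.1 in R 4.3.3, with Benjamini-Hochberg adjustment over all names tested and a threshold of 0.05. Platforms were fitted separately. The fit was checked on simulated data. Replicates are biological per the labels.

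Members, relatives and tissue lists were chosen with earlier results of these data known. Named were the 5 members, 4 relatives sharing part of the seed, and the 3 names most alike on each platform. Replicate numbers were tested for pairing: deviations of arrays with the same number correlated at over 0.1 in all 3 pairs for TCDD against DMSO at 36 hpf on the Agilent arrays (0.21 to 0.26), where number 1 is slide 1, and in no other comparison did all 3 pairs.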

Additional observations from a re-analysis of the deposited data

How the results depend on the processing

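With the replicate block, 4 of 4 Agilent and 5 of 5 Exiqon members passed for stage in each treatment and 0 passed for TCDD or its difference between stages, so the pairing changed no call of a member. The Agilent calls over all names for the difference between stages went to 0 with the block, against 2 without it. Over all settings, each member's stage change passed in 199 of 199 Agilent fits (-2.76 to -1.39) and in 220 of 220 Exiqon fits (-2.21 to -0.89). Among TCDD effects and their differences between stages, 0 of 294 Agilent and 1 of 325 Exiqon fits passed, and 14 and 28 changed sign, none of them past the threshold. The one that passed came without the second TCDD replicate at 60 hpf, so leaving out each replicate in turn gave 0 to 1 Exiqon members for TCDD at 60 hpf.

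Signs that changed on the Agilent arrays at 36 hpf were those of miR-430a with quantile normalization (-0.0316), with outlier spots kept (-0.00971) and with no scaling (-0.0109), and of miR-430c with quantile normalization (0.0480). At 60 hpf they were those of miR-430c with quantile normalization (-0.0227) and no scaling (-0.0536) and of miR-430a with the mean of its probes (0.00817). For the difference between stages miR-430c turned with quantile normalization (-0.0707). In the Exiqon data median centring gave -0.0918, -0.0544, -0.153 and -0.0748 for miR-430a, miR-430b, miR-430c and miR-430j at 36 hpf, and 0.160, 0.0807, 0.135, 0.0353 and 0.126 for miR-430a, miR-430b, miR-430c, miR-430i and miR-430j for the difference between stages. For miR-430c at 36 hpf the deposited table gave -0.0104 and the day block -0.00653. At 60 hpf the sample channel alone gave -0.0286, -0.0422 and -0.258, and the day block -0.0471, -0.0672 and -0.0804, for miR-430a, miR-430b and miR-430j. The cause was not tested.

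Leaving out each replicate turned some signs as well. The Agilent ranges were -0.132 to 0.129 for miR-430c at 36 hpf, -0.114 to 0.0185 for miR-430a, -0.0518 to 0.124 for miR-430c and -0.0734 to 0.00117 for miR-430j at 60 hpf, and -0.0704 to 0.191 for miR-430c in the difference between stages. The Exiqon ranges were -0.0140 to 0.0198 for miR-430c at 36 hpf, -0.0877 to 0.00966 for miR-430c and -0.0140 to 0.0983 for miR-430j at 60 hpf, and -0.0756 to 0.0415, -0.0941 to 0.00319 and -0.0883 to 0.0272 for miR-430a, miR-430c and miR-430j in the difference between stages.

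Calls over all names for TCDD at 60 hpf were 6 on the Agilent arrays, and 3 with the percentile over all probes, with quantile normalization or with no filter, 2 with normexp or with the compared groups alone, and 0 with no scaling. In the Exiqon data they were 13, against 0 with median centring, 5 with the sample channel alone and 50 without the second TCDD replicate. Without the third TCDD replicate the Agilent count was 3. At 36 hpf the count was 1 on each array type, with 0 to 3 over the settings tried on each. Calls for the difference between stages were 2 on the Agilent arrays, with 0 to 3 over settings, and 5 on the Exiqon arrays, with 0 to 16. With saturated spots left out, miR-430b could not be tested in contrasts that use TCDD embryos at 36 hpf. No scaling and the shorter miR-430b probe were chosen after seeing the data.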
